A study of Homo sapiens with 14 samples.

Results

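The cytosolic ribosomal protein genes code for the proteins of the 80S ribosome, and their mRNA levels were followed in U2OS, a human osteosarcoma cell line, treated with small molecules. Members were chosen by symbol alone: RPL or RPS followed by a number, with an optional A, L, AL or X ending, together with RPLP0, RPLP1, RPLP2 and RPSA, and without pseudogenes. The rule found 83 genes, 50 of the large and 33 of the small subunit, among the 30791 symbols of both deposited tables. RNA-seq had been deposited as FPKM values (fragments normalized to transcript length and library size) for 14 libraries. The replicate 1 table held 10 libraries: DMSO, 2-PCPA, GSK343, rapamycin, BIX-01294, BRD4770, GSK-J4, SAHA, UNC1215 and VPA. The replicate 2 table held DMSO, 2-PCPA, GSK343 and rapamycin again, so 6 compounds had 1 library and 4 groups had 2.

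All groups were the same unmodified line. The vehicle was DMSO at 0.5% by volume, for which the labels give no time. Rapamycin, an inhibitor of the kinase complex mTORC1, was given at 5 µM for 24 h. GSK343, an EZH2 inhibitor, was given at 10 µM for 24 h. The LSD1 inhibitor 2-PCPA was given at 1 mM for 12 h. Among compounds with 1 library, the G9a inhibitors BIX-01294 and BRD4770 were given at 5 µM for 12 h and 20 µM for 24 h. GSK-J4, which inhibits JMJD3 and UTX, was used at 20 µM for 12 h. The histone deacetylase inhibitors SAHA and VPA were used at 1 µM and 20 µM for 24 h, and UNC1215, a ligand of L3MBTL3, at 50 µM for 24 h. Doses and times differed between compounds, so compounds were set against DMSO and not against each other. The labels do not say whether the replicates were grown separately, and the spread behind each p-value may therefore be technical.

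Each ribosome carries a single copy of nearly every ribosomal protein, and the proteins are made in matched amounts from genes scattered over the chromosomes. Most of their mRNAs begin with a C followed by a run of pyrimidines, the 5′ terminal oligopyrimidine (TOP) motif, through which mTORC1 controls their translation and, with the binding protein LARP1, their stability. RNA-seq of total poly(A) RNA measures the amount of these mRNAs and not how well they are translated.

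The annotated start regions are shown for members that lead the rapamycin comparison, for RPS6 and RPLP0 as reference, and for parent genes and paralogs, to compare which of them begin with this motif. Each line gives the 10 bases before the annotated start and the 20 bases from it, on the gene's strand, with a starting C and its pyrimidine run of at least 5 bases in capitals. Where RefSeq lists several starts, the one with the longest run is shown.
RPL28: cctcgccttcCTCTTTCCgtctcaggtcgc
RPL13: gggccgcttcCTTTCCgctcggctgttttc
RPL13A: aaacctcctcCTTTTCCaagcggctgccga
RPL10: ggaggagcgcCTCTTTCCCTTCggtgtggt
RPL3: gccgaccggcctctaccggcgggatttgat
RPS6: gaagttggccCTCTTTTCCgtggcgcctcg
RPLP0: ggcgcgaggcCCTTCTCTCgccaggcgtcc
RPS27: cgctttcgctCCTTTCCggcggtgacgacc
RPS27L: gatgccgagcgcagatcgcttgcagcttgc
RPL36A: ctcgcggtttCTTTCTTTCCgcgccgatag
RPL36AL: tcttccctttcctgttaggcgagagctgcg
RPL10L: gtagttaagagagcgcattttgacttcgag
RPL22: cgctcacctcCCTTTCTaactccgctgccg
RPL22L1: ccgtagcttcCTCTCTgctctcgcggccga
The sequences are from RefSeq on GRCh38.p14. On the plus strand the windows are chr19:55385922-55385951 for RPL28, chr16:89560672-89560701 for RPL13, chr19:49487598-49487627 for RPL13A, chrX:154398367-154398396 for RPL10, chr1:153990752-153990781 for RPS27 and chrX:101391001-101391030 for RPL36A. On the minus strand they are chr22:39319604-39319633 for RPL3, chr9:19380217-19380246 for RPS6, chr12:120201092-120201121 for RPLP0, chr15:63157458-63157487 for RPS27L, chr14:49620607-49620636 for RPL36AL, chr14:46651762-46651791 for RPL10L, chr1:6199576-6199605 for RPL22 and chr3:170870176-170870205 for RPL22L1. The files themselves were made on hg19, so no coordinate was carried over.

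A start table entry was found for 65 of the 83 members. A C followed by at least 4 further bases of C or T stood at an annotated start in 46 of the 65, or 70.8%, against 5.14% of 27305 genes in the table and 7.14% of the tested genes that are no members. RPL3 and RPL36AL begin with C but have runs of 4 and 3 bases, and RPS27L and RPL10L begin with another base. The paralog RPL22L1 does have a run, of 6 bases, and its parent RPL22 has 7. The ETS core CCGGAAG, searched on both strands from 250 bases before to 50 after the start, was in 35.4% of the members, 12.2% of all genes and 22.8% of tested non-members. The YY1 core AAGATGGC was in 9.23% of members and 6.72% of tested non-members, and TATAAA in 9.23% and 7.72%. The last 3 bases of the ETS core are the first 3 of the YY1 core, so a shared stretch counts for both, and a match describes letters only.

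Members were among the most abundant mRNAs in every library. In DMSO their median level was 943 FPKM in replicate 1 and 1048 FPKM in replicate 2, and 59 and 54 of the 100 most abundant rows were members. RPL41, the smallest protein of the large subunit, led in both DMSO libraries with 3539 and 4685 FPKM. RPLP1, an acidic protein of the stalk that recruits elongation factors, came next with 3267 and 4461 FPKM, followed by RPS2 with 2792 and 3464 FPKM. At the low end, the paralogs RPL10L and RPL39L had 23.9 and 31.9 FPKM in replicate 1, then 32.3 and 36.4 FPKM in replicate 2. Levels of members thus spanned a wide range within a library, on a scale already divided by length. RPL27A, RPS23 and RPL22, at 115, 130 and 135 FPKM in DMSO replicate 1, were the lowest of the remaining members. Processed copies of ribosomal protein genes are common in the human genome, and how the authors assigned reads shared with copies is not given in the sources used here, so levels of single members are uncertain to that extent.

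Some members could not be followed in full. RPS18, a protein of the small subunit head, was listed at 0 in all 10 replicate 1 libraries and at 2386 FPKM in DMSO replicate 2. Of the 20 nearest coding genes around it, 15 were also listed at 0 throughout replicate 1, and 11 of these had at least 1 FPKM in DMSO replicate 2. RPL3L, the muscle paralog of RPL3, was listed at 0 or below 1 FPKM in every library but that of SAHA, where it had 7.8 FPKM. The 80 members with a mean of at least 1 FPKM in the 8 libraries of the replicated groups were tested, RPS18 among them.

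Together the members held 15.8% (BIX-01294) to 22.8% (BRD4770) of the summed FPKM in replicate 1, with DMSO at 18.3%, 2-PCPA at 17.4% and rapamycin at 22.1%. In replicate 2 the share was 13.5% in DMSO, 13.7% with 2-PCPA, 14.1% with GSK343 and 14.8% with rapamycin. Small RNA rows reached 152001 FPKM in DMSO replicate 2 and took much of that sum. Without small RNA and clone rows the shares were 20.3%, 20.0%, 20.8% and 23.2% in replicate 2, and rapamycin was highest of the 4.

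Across the series, absolute depth is unknown; depth relative to the DMSO library of the same table, read from low values, was 0.556 to 1.24 in replicate 1 and 0.676 to 0.809 in replicate 2. Of 9 osteoblast lineage genes, SPARC, COL1A1, VIM and CDH2 had at least 14.5 FPKM in every library and RUNX2 0.63 to 5.27, whereas SP7 was at 0 in all 14, COL1A2 reached 0.099 FPKM and ALPL 4.76 FPKM. BGLAP was at 0 in DMSO replicate 1 and at 50.9 FPKM in DMSO replicate 2. Of 8 markers of other cells none passed 2.51 FPKM (EPCAM). The 2-PCPA replicate 1 library stood apart: over all tested genes its median log2 difference from DMSO was -0.42, against 0.01 in replicate 2.

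Rapamycin addresses the kinase that acts on TOP mRNAs. With it, 74 of 80 tested members had a higher FPKM than DMSO in both replicates, where 25.5% of all 12603 tested genes did, and 2 were lower in both, where 37.1% of all genes were. Under quantile normalization, which gives all libraries of a table the same distribution, the counts were 40 and 7. It can remove a shift shared by the genes that fill the top ranks, where many members lie. The median difference was 0.29 in each replicate on the log2(FPKM + 1) scale, a fold of 1.23, against -0.05 and -0.03 for all genes. FPKM is relative to the library, so a change of these mRNAs and a change of all other mRNA in the opposite direction cannot be told apart. No single member passed the limma test at an adjusted p of 0.05 (0 of 80, where 0.0159% of all genes passed). RPL3 alone had an unadjusted p under 0.05, and the smallest adjusted p among members was 0.752. The median 95% confidence interval of a member reached 0.61 to either side, so a difference of this size in 1 gene was not detectable with 2 replicates.

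**Figure D1:**
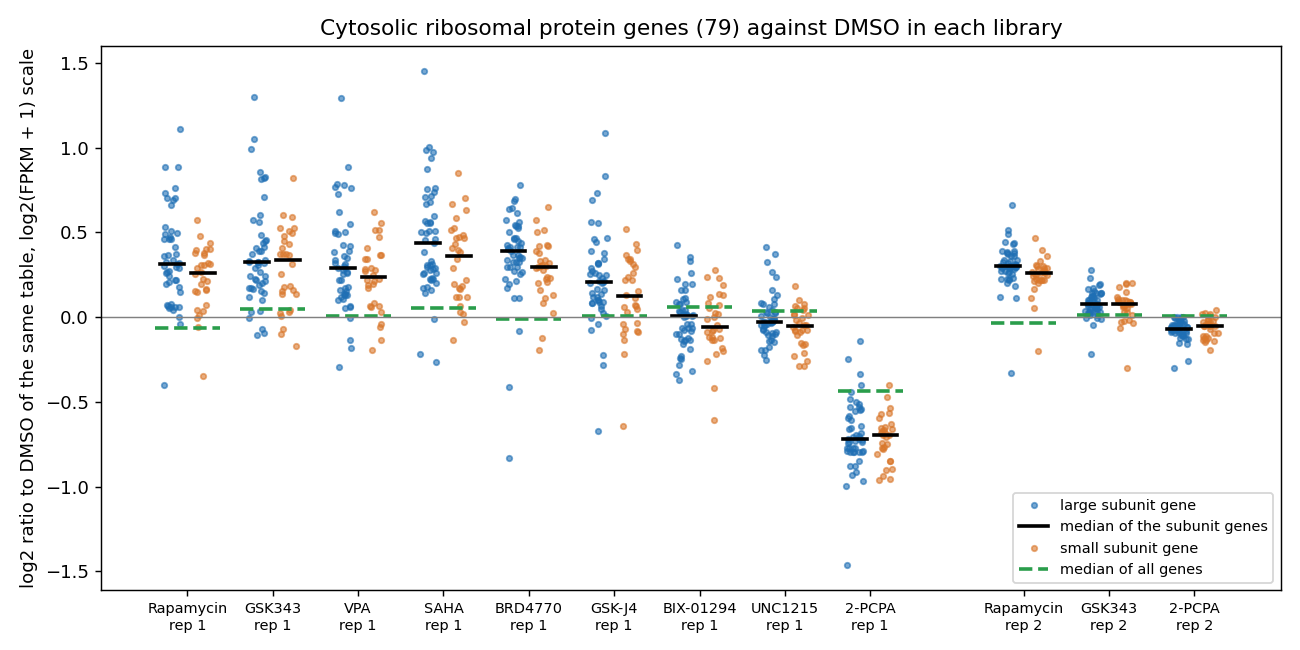
Log2 difference from the DMSO library of the same table for 79 ribosomal protein genes (RPS18 left out), 1 point per gene, on the log2(FPKM + 1) scale; black bars are medians of the large (blue) and small (orange) subunit genes and green dashed bars the medians of all genes. With rapamycin both subunits sit above the green bar in both replicates, with medians over the members of 0.29 and 0.29, whereas 2-PCPA lies far down in replicate 1 (-0.71) and near 0 in replicate 2 (-0.06); under quantile normalization the median over both replicates is 0.08 for rapamycin and 0.01, on the other side of 0, for 2-PCPA.

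The leading members by size were all of the large subunit. RPL3, which helps form the peptidyl transferase center, had 1033 FPKM in DMSO and 1685 with rapamycin in replicate 1, and 1101 and 1746 in replicate 2. Both rapamycin values exceeded both DMSO values, and the fitted log2 fold change was 0.68 (SE 0.28, adjusted p = 0.752), nearly the same in replicate 1 (0.70) and replicate 2 (0.67). RPL28, a eukaryote-specific protein, had 239 FPKM in DMSO and 517 with rapamycin in replicate 1, then 579 and 744 in replicate 2. Here the groups overlapped, as the rapamycin value of replicate 1 was below the DMSO value of replicate 2. Wherever values of both replicates are set against each other, they also carry the difference between the 2 tables. Its fold change of 0.74 (SE 0.35, adjusted p = 0.757) joins 1.11 and 0.36.

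RPL13 had 177 and 328 FPKM in replicate 1, then 238 and 322 FPKM in replicate 2, so that both rapamycin values were above both DMSO values (log2 fold change 0.66, SE 0.33). RPL13A, which also takes part in a translational silencing complex outside the ribosome, had 1122 and 1828 FPKM in replicate 1 and 1999 and 2805 in replicate 2 (0.60, SE 0.30), and its groups overlapped in the same way. RPL10, which joins the large subunit late in its assembly, had 369 and 584 FPKM and then 463 and 661 FPKM (0.59, SE 0.30). The adjusted p was 0.757 for each of these 3 genes. RPL39L, the paralog of the exit tunnel protein RPL39, is among the 5 highest despite its low level: 31.9 and 59.9 FPKM in replicate 1, then 36.4 and 45.2 FPKM in replicate 2 (0.60, SE 0.38, adjusted p = 0.781). The rapamycin library was the highest for RPL39L among the 10 of replicate 1 and among the 4 of replicate 2.

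**Figure D2:**
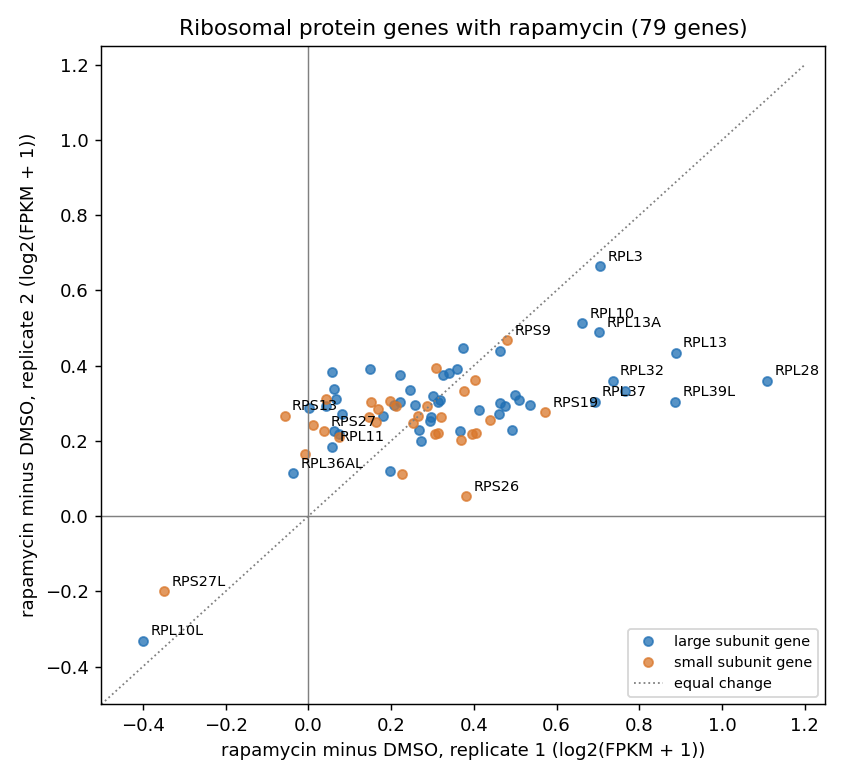
Rapamycin minus DMSO on the log2(FPKM + 1) scale in replicate 1 (x axis) and replicate 2 (y axis) for 79 ribosomal protein genes, with large subunit genes in blue, small subunit genes in orange and equal change dotted. Most genes form a band near 0.3 in replicate 2 that stretches from about 0 to 1.11 in replicate 1; RPL10L and RPS27L lie below 0 in both; under quantile normalization 40 genes of the 80 tested are above 0 in both.

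The groups by role had differences of like size. The mRNAs of all 3 stalk proteins were higher in both replicates. Their log2 fold changes were 0.27 for RPLP0, 0.24 for RPLP1 and 0.30 for RPLP2, of which RPLP0 and RPLP1 turn to -0.02 and -0.06 under quantile normalization. RPL5 and RPL11, which carry 5S rRNA and bind MDM2 when ribosome assembly is disturbed, had 0.27 and 0.12, and RPL11 turns to -0.13 under quantile normalization. The larger list of reported MDM2 binders had 7 of 8 genes higher in both replicates, RPS27L being the exception, with a median of 0.24. RPS6, the S6 kinase substrate and the usual readout of mTORC1 activity as a phosphoprotein, had 1214 and 1392 FPKM in replicate 1, then 1137 and 1406 FPKM in replicate 2. Both rapamycin libraries were above both DMSO libraries, yet 0.25 with an SE of 0.26 is within the error (adjusted p = 0.860).

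RPSA, which doubles as a laminin receptor, had 956 and 1108 FPKM in replicate 1, then 686 and 841 FPKM in replicate 2 (0.25). RPS19, the gene most often mutated in Diamond-Blackfan anaemia, had 855 and 1272 FPKM and then 1172 and 1419 FPKM (0.42, SE 0.29). Of the 9 tested genes of that anaemia, 8 were higher in both replicates, with a median of 0.22. All 7 genes for proteins in or around the exit tunnel were higher in both (median 0.28). So were all 6 genes for proteins at the decoding site and mRNA path (median 0.24). RPL41 had 0.28. RPS27A, made as a fusion with ubiquitin, had 1003 and 1055 FPKM and then 975 and 1129 FPKM (0.14, and -0.03 under quantile normalization). RPS18, on replicate 2 alone, went from 2386 to 2927 FPKM, and its fitted 0.15 includes a 0 from replicate 1.

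The lowest members among those on 1 side of DMSO were RPL10L, RPS27L, RPL11, RPS14 and RPS27. RPS14 had 0.13 and RPS27 0.13, and both fell on the other side under quantile normalization, at -0.09 and -0.14. The 49 large subunit genes had a median of 0.31 and the 31 small subunit genes a median of 0.25. Large subunit genes also had the higher median under quantile normalization, at 0.10 against 0.05. Median centring and TPM scaling rescale a whole library and so move both sets about alike, which makes them no check of this order. The difference was not tested.

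Paralogs departed from their parent genes. RPS27L, a target of p53 that differs little from RPS27 in sequence, had 200.5 FPKM in DMSO and 157 with rapamycin in replicate 1, and 173 and 150.3 in replicate 2, while RPS27 had 2592 and 2660 and then 2682 and 3138. As a percent of RPS27 it stood at 7.73% in DMSO and 5.91% with rapamycin in replicate 1, and at 6.44% and 4.79% in replicate 2. RPL10L, an intronless copy known from the testis, had 23.9 and 17.9 FPKM and then 32.3 and 25.5 FPKM. Relative to RPL10 that was 6.47% and 3.06% in replicate 1 and 6.97% and 3.85% in replicate 2. The log2 fold changes were -0.27 (SE 0.26) for RPS27L and -0.37 (SE 0.21) for RPL10L, with adjusted p of 0.849 and 0.768.

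The comparators RPL22L1, RPL26L1 and RPL7L1, which the naming rule leaves out, also had lower shares of their parents with rapamycin in both replicates. RPL22L1 stood at 20.4% and 13.6% of RPL22 in replicate 1 and 11.5% and 8.83% in replicate 2. RPL26L1 stood at 6.08% and 4.56% of RPL26, and then at 5.75% and 4.29%. RPL7L1, whose product works in ribosome assembly, stood at 4.78% and 3.35% of RPL7, and then at 4.14% and 3.19%. Their own log2 fold changes were -0.16, -0.14 and -0.25, and those of the parents RPL22, RPL26 and RPL7 were 0.31, 0.28 and 0.19, the last -0.07 under quantile normalization. RPL36AL, a retrocopy of RPL36A that is expressed broadly, stood at 96.7% and 68.4% of it and then at 68.8% and 61.7%, with log2 fold changes of 0.04 for RPL36AL and 0.37 for RPL36A. RPL39L ran the other way: 3.57% of RPL39 in DMSO and 6.42% with rapamycin in replicate 1, then 4.60% and 4.88%, while RPL39 itself had a log2 fold change of 0.14 (-0.05 under quantile normalization). Lower shares were not particular to rapamycin. With GSK343 those of RPS27L, RPL10L, RPL36AL and RPL26L1 were below DMSO in both replicates, and those of RPL22L1 and RPL7L1 in replicate 1 only. The GSK-J4 library was below rapamycin replicate 1 for RPS27L (5.07%), RPL10L (2.59%), RPL22L1 (11.5%), RPL36AL (53.8%) and RPL26L1 (2.91%). For RPL7L1 it was above DMSO, at 5.19%.

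**Figure D3:**
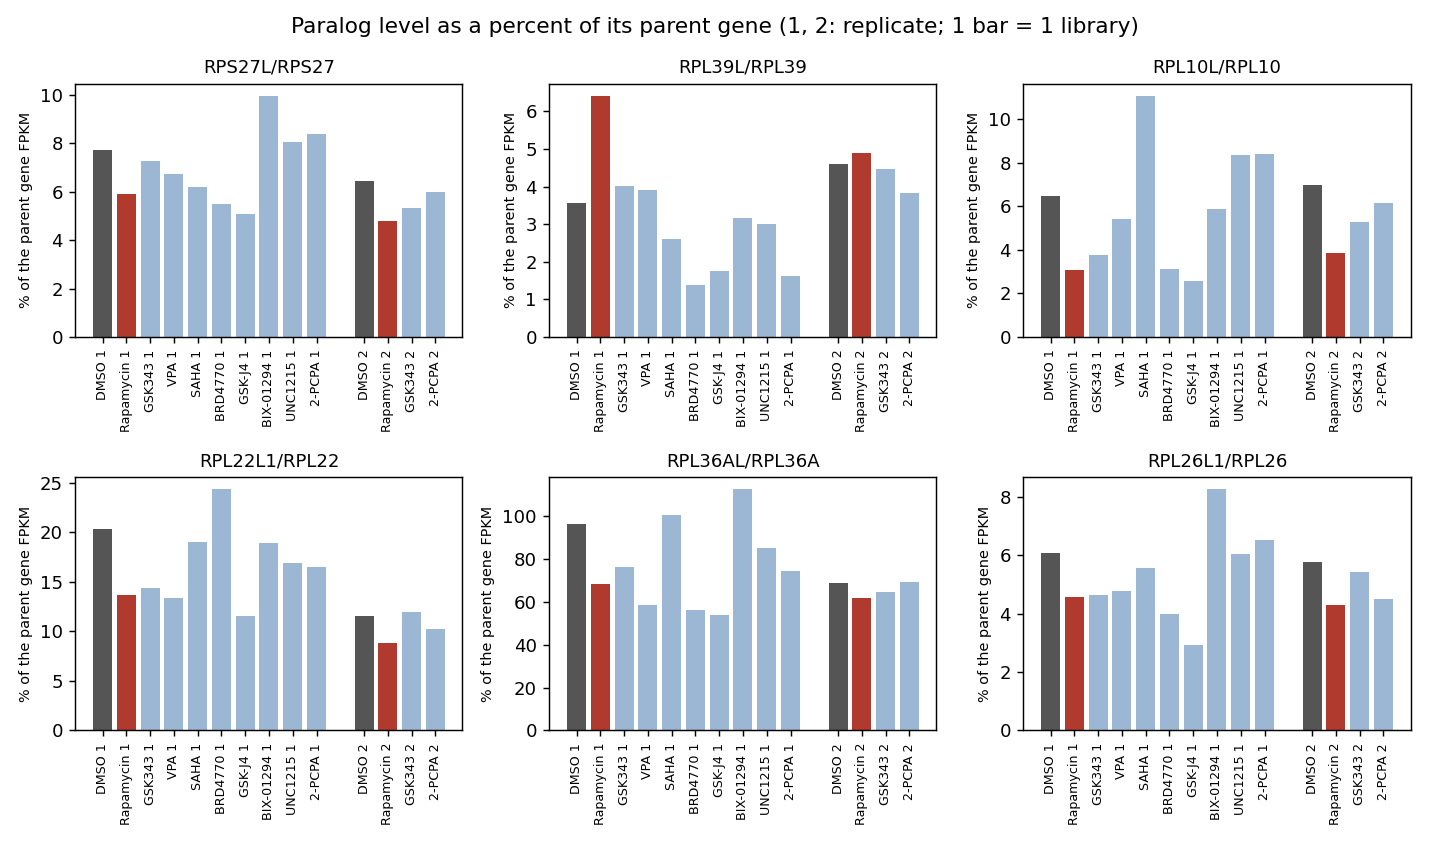
FPKM of 6 paralogs as a percent of the parent gene's FPKM, 1 bar per library, with DMSO in grey, rapamycin in red and the other compounds in light blue; bars start at 0. The red bar is below the grey bar in both replicates for RPS27L, RPL10L, RPL22L1, RPL36AL and RPL26L1 and above it for RPL39L (3.57% to 6.42% and 4.60% to 4.88%). The GSK343 bars are also below the grey bar in both replicates for RPS27L, RPL10L, RPL36AL and RPL26L1. Ratios within a library do not change when a library is rescaled by a constant.

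Members with and without the pyrimidine start had like medians with rapamycin, 0.29 over 46 genes and 0.26 over 19. The split rests on the exact annotated start base: RPL36AL counts as without, although the bases directly before its start are all pyrimidines. The 19 are therefore not a set known to lack the motif, and its part among members was not tested. Among tested genes that are no members the medians were -0.01 over 649 with the motif and -0.07 over 8441 without it. Of 21 other known TOP mRNAs, which code for elongation factors and other translation proteins, 17 were higher in both replicates and 0 lower, with a median of 0.32. The mitochondrial ribosomal proteins, which serve the separate ribosome of that organelle, had 10 of 76 higher and 38 lower in both (median -0.13). Proteasome subunits had 1 of 37 higher and 32 lower (median -0.32). In the arm of the mTOR pathway that acts on TOP mRNAs, 3 of 17 genes were higher and 7 lower in both (median -0.21, with medians of 0.03 in replicate 1 and -0.24 in replicate 2); by limma 0 passed and 0 had an unadjusted p under 0.05. Of 21 tested genes on a list for ribosomal protein gene transcription, import and chaperoning, 5 were higher and 10 lower (median -0.14). The list also holds MDM2 and MDM4, which are not factors of this kind. By limma 0 of the 21 passed and 4 had an unadjusted p under 0.05, a larger share than the 814 of all 12603 genes. In both pathway lists the share higher in both replicates was somewhat below the 25.5% of all genes. The share lower in both was somewhat above 37.1%. With 17 and 21 genes these gaps rest on few genes. Of 624 non-members with at least 100 FPKM, 181 were higher and 228 lower in both, with a median of -0.04. That set is abundant but not matched to the members in level, as members made up 59 and 54 of the 100 most abundant rows in DMSO.

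The replicates differed in how the change was spread over the members. In replicate 2 the rapamycin library was the highest of 4 for 78 of 80 members, RPL10L and RPS27L being the exceptions, and the 2-PCPA library the lowest for 70. In replicate 1 it was the highest of 10 for only 3 of 79 members, whereas SAHA was highest for 35, BRD4770 for 23 and GSK343 for 12. Across 79 members, Pearson's r between the rapamycin differences of the replicates was 0.58 and Spearman's rho 0.43, and without RPL10L, RPL39L and RPS27L Pearson's r was 0.46. The points share 2 DMSO libraries, and genes are not independent replicates.

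Transcript GC content went with the differences in replicate 1 and not in replicate 2 for rapamycin. The members' median transcript GC ranged from 42.3% to 62.8% (GENCODE v29 transcripts). Spearman's rho between GC and the rapamycin difference was 0.50 in replicate 1 and 0.02 in replicate 2 over 79 members, 0.27 and -0.02 over 11065 non-members, and 0.43 and 0.05 over the 528 non-members of at least 100 FPKM. In replicate 1 the 39 members of higher GC had a median rapamycin difference of 0.37 and the 40 of lower GC 0.19. In replicate 2 both sets had 0.29. RPL28 and RPL13 are among the GC-rich members with the largest replicate 1 values; the part of GC in them was not tested.

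**Figure D4:**
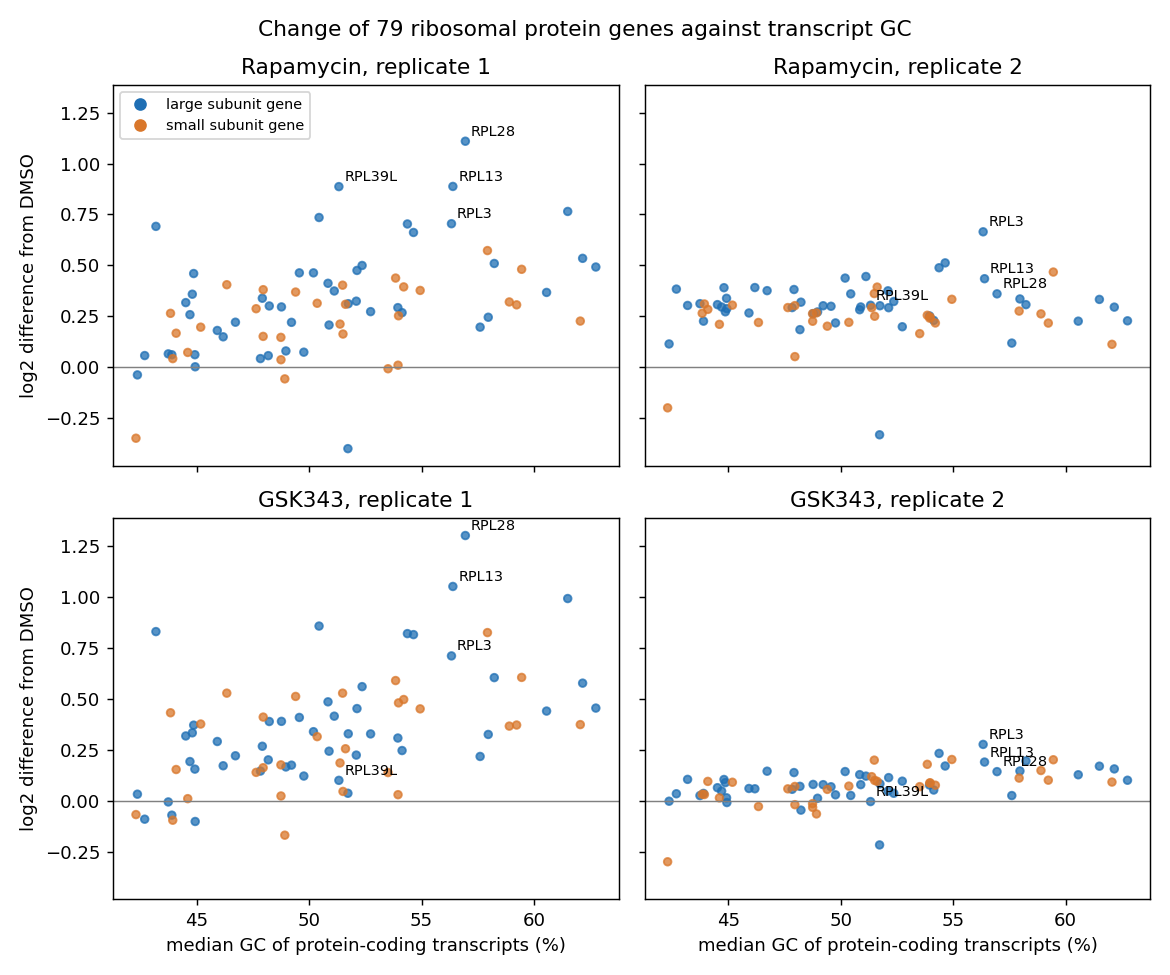
Log2 difference from DMSO of 79 ribosomal protein genes (y axis, log2(FPKM + 1) scale) against the median GC percent of their protein-coding transcripts (x axis), for rapamycin (upper row) and GSK343 (lower row) in replicates 1 and 2, with large subunit genes in blue and small subunit genes in orange. The points slope upward in replicate 1 for both compounds (rho 0.50 and 0.54) and lie flat near 0.29 for rapamycin in replicate 2 (rho 0.02); under quantile normalization the rapamycin median over both replicates is 0.08.

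With GSK343 the members were also higher than DMSO, mainly in replicate 1. Of the 80 members, 64 were higher than DMSO in both replicates, where 34.6% of all tested genes were, and 3 lower in both, where 26.7% were. Under quantile normalization 29 were higher and 17 lower. The median was 0.32 in replicate 1 and 0.08 in replicate 2, against 0.03 and 0.01 for all genes. Relative to all genes the median over both replicates was 0.16; without GSK343 replicate 1 it was 0.03 and without replicate 2 it was 0.29. No member passed the limma test (0 of 80, 0 with an unadjusted p under 0.05, smallest adjusted p 0.949; 0.0159% of all genes passed). The comparison shares its DMSO libraries with those of rapamycin and 2-PCPA, so the values of the 3 are not independent.

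Among the highest members with GSK343 were RPL28, RPL13, RPL13A and RPL3. RPL28 had 239 FPKM in DMSO and 590 with GSK343 in replicate 1, and 579 and 639 in replicate 2. RPL13 had 177 and 367 FPKM in replicate 1, and 238 and 271 in replicate 2. The differences in replicate 1 exceeded those in replicate 2 for each of them, as they did in 70 of the 79 members. Fitted log2 fold changes were 0.72 (SE 0.35) for RPL28, 0.62 for RPL13, 0.53 for RPL13A and 0.49 for RPL3, all with an adjusted p of 0.949. The lowest among those on 1 side of DMSO were RPS27L, RPS13, RPL21, RPS27A and RPS14. RPS27L had 200.5 and 191 FPKM in replicate 1 and 173 and 140 in replicate 2, a fold change of -0.18 (SE 0.26). RPS13 had -0.12, RPL21 -0.06, RPS27A 0.01 and RPS14 0.06, of which RPS27A and RPS14 turn to -0.11 and -0.14 under quantile normalization. RPL10L had -0.09. GC went with the members' GSK343 difference in both replicates, with rho of 0.54 and 0.58, and its part was not tested; over non-members rho was 0.54 and 0.25.

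With 2-PCPA the members were lower than DMSO. In both replicates 72 of 80 were lower, where 42.2% of all tested genes were, and 0 were higher, where 11.5% were; under quantile normalization 12 were lower and 28 higher, and the median over members was 0.01. The median difference was -0.71 in replicate 1, when that of all genes was -0.42, and -0.06 in replicate 2, when that of all genes was 0.01. Relative to all genes the median over both replicates was -0.19, and without 2-PCPA replicate 1 it was -0.04. The 624 non-members with at least 100 FPKM had a median of -0.17 relative to all genes, close to the members' -0.19. Of these 624, 402 were lower in both replicates, a smaller share than among members, and 22 were higher in both. Proteasome subunits had 32 of 37 lower in both. No member passed the limma test (0 of 80, 0 with an unadjusted p under 0.05, smallest adjusted p 0.592; 0.0238% of all genes passed).

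RPL39L was the lowest member, with 31.9 FPKM in DMSO and 10.9 with 2-PCPA in replicate 1 and 36.4 and 30.3 in replicate 2 (log2 fold change -0.86, SE 0.38, adjusted p = 0.592). Both 2-PCPA values lay below both DMSO values. RPL9 followed with 1050 and 526 FPKM, and then 987 and 925 FPKM (-0.54, SE 0.27). RPL41, RPS13 and RPS15 had -0.53, -0.53 and -0.53. RPS27L had -0.45 and RPL10L -0.32, the latter with 23.9 and 18.7 FPKM and then 32.3 and 26.0 FPKM. In the share of its parent gene RPL39L stood at 1.62% of RPL39 with 2-PCPA in replicate 1 and 3.82% in replicate 2, below DMSO (3.57% and 4.60%) in each.

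The 6 compounds with 1 library have no replicate check, and their values compare libraries only. A member counted as higher or lower when it was at least 1.5-fold from DMSO on the log2(FPKM + 1) scale, among 80 members and 12804 genes of at least 1 FPKM in the replicate 1 table. With SAHA 19 members were at least 1.5-fold higher and 0 lower, against 19.1% and 11.8% of all genes, and the member median was 0.33 above that of all genes. With VPA 10 were higher and 0 lower (10.1% and 6.83% of all genes), with a median 0.27 above. With BRD4770 7 were higher and 1 lower (14.5% and 13.8%), with a median 0.34 above. With GSK-J4 4 were higher and 2 lower (19.1% and 16.4%), with a median 0.18 above. BIX-01294 had 1 higher and 1 lower (21.9% and 15.5%), and UNC1215 1 higher and 0 lower (6.26% and 4.09%), and their medians relative to all genes were -0.06 and -0.07. The counts of higher members with SAHA and VPA, out of 80, were near the shares of all genes, and their counts of lower members, as both counts of the other 4 libraries, were below them. These 80 differ from the 80 tested above, as RPS18 is left out and a member of low level comes in; at a mean of at least 5 FPKM the counts of higher members with BIX-01294 and UNC1215 were 0 and 0.

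DMSO replicate 1 itself stood low among the libraries of its table. Set against the median of the 9 compounds, its member median relative to all genes was -0.25. In the replicate 1 table DMSO, BIX-01294 and UNC1215 each had a median rank of 8 of 10 libraries over the members, SAHA 2, and BRD4770 and GSK343 3. With the median of the other 8 compounds as the reference, tried after these values were known, the relative member median was 0.15 for rapamycin, 0.14 for BRD4770, 0.10 for SAHA, 0.05 for GSK343, 0.04 for VPA and -0.08 for GSK-J4. Rapamycin then had the highest value of the 9, at less than the 0.36 found against DMSO.

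RPL28 shows the split most plainly. It had 239 FPKM in DMSO, 201 with 2-PCPA, 229 with BIX-01294 and 288 with UNC1215, and in the other 6 libraries of replicate 1 from 411 (BRD4770) to 657 FPKM (SAHA). All 4 replicate 2 libraries, DMSO among them, lay at 579 to 744 FPKM. Levels set across the 2 tables also carry the difference between tables, so they cannot show which DMSO library stood apart. RPL13 was likewise at 122 to 190 FPKM in the same 4 libraries of replicate 1 and at 244 to 367 FPKM in the other 6.

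Among members of at least 10 FPKM in DMSO, those with the widest raw spans over the 9 compounds of replicate 1 were RPL39L, RPL10, RPS28, RPL28 and RPL18, with spans of 2.35, 1.81, 1.81, 1.70 and 1.67 on the log2 scale, against a median span of 1.21. Raw spans include shifts of a whole library, such as that of 2-PCPA. With each library's member median removed, the widest were RPL39L (1.76), RPL10L (1.33), RPL28 (1.13), RPS28 (1.07) and RPS27L (1.07). RPL10 then had 1.06 and RPL18 0.65. RPL39L had 17.5 FPKM with BRD4770 and 19.7 with GSK-J4 against 31.9 in DMSO, although RPL39 was higher in both libraries, at 1266 and 1112 FPKM against 894. RPL10 was highest with GSK-J4, at 785 FPKM against 369 in DMSO. RPS28 was lowest of the compounds other than 2-PCPA with BIX-01294, at 537 FPKM against 818 in DMSO, and had 1475 FPKM with SAHA. RPL10L had 47.8 FPKM with SAHA, its highest level, and 33.9 with VPA, against 23.9 in DMSO. RPL18 had 922 FPKM with SAHA against 501 in DMSO.

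Among the other extreme members of single libraries, BRD4770 had RPL36A at 802 against 495 FPKM in DMSO and RPL3 at 1662 against 1033. GSK-J4 had RPL37 at 372 against 223 FPKM and RPS27L at 128 against 200.5. SAHA had RPL13 at 356 against 177 FPKM and RPL37 at 443, while RPL21 was at 967 against 1124. VPA had RPL13A at 1936 against 1122 FPKM, and at the low end RPL36AL at 390 against 478. BIX-01294 had RPL32 at 326 against 242 FPKM and RPS15 at 581 against 777, and UNC1215 had RPL10L at 32.2 against 23.9 FPKM and RPS27 at 2121 against 2592. RPS27A varied least by raw span, from 978 to 1055 FPKM over all replicate 1 libraries except that of 2-PCPA, which had 613. With each library's member median removed its span was 0.34, against 0.17 for RPS16.

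**Figure D5:**
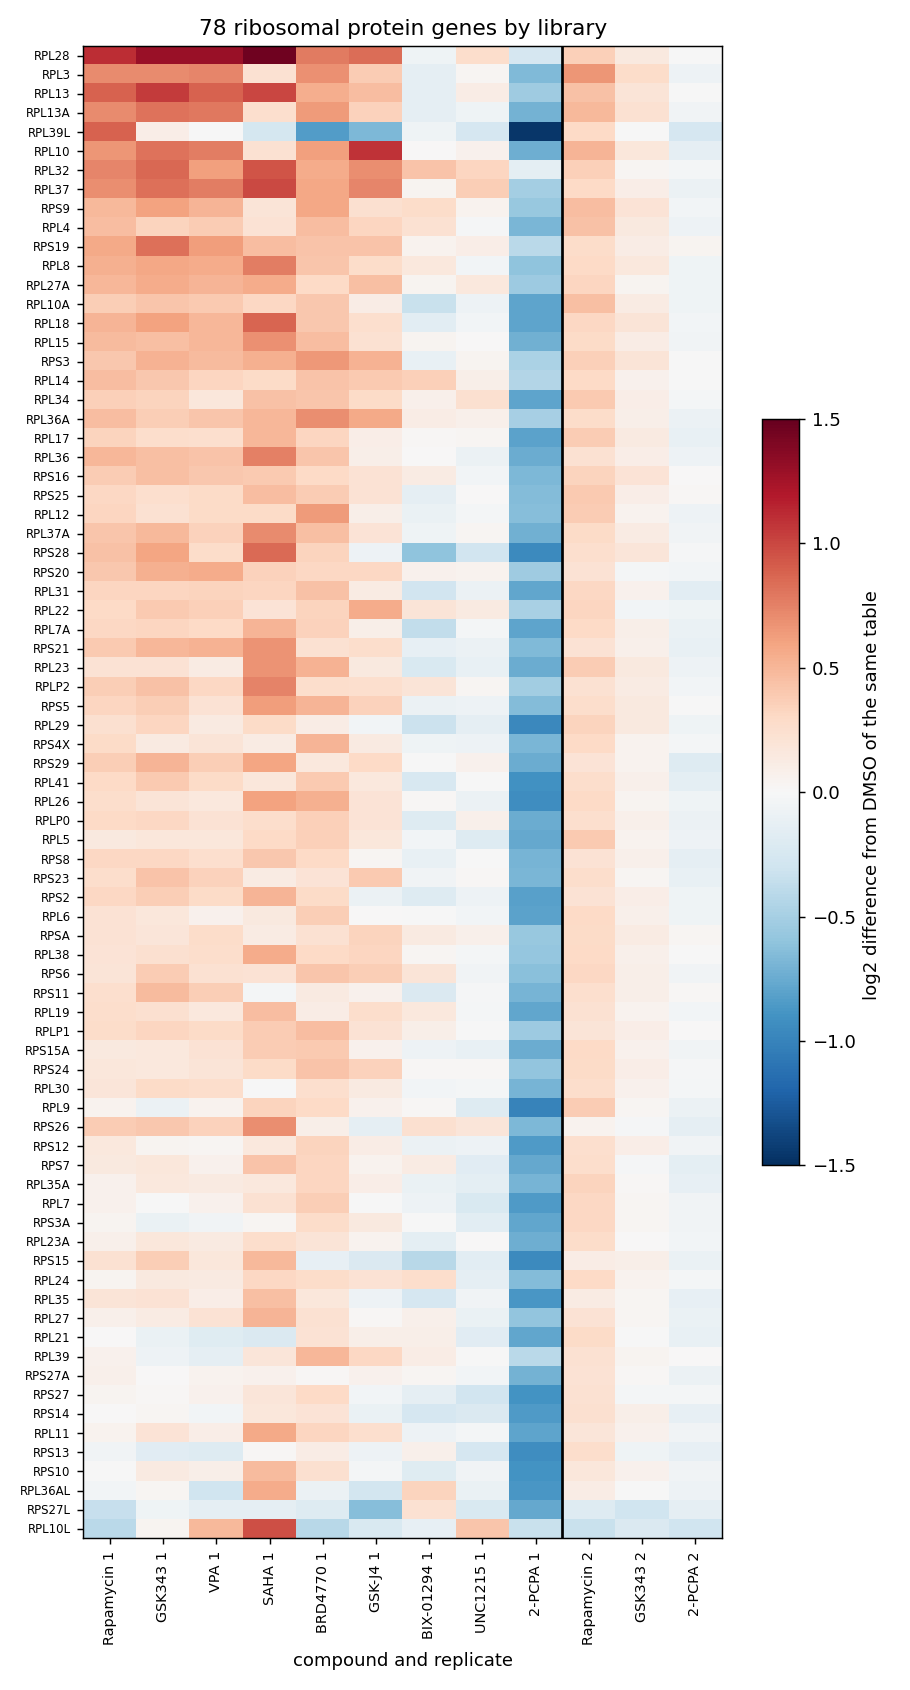
Log2 difference from DMSO of the same table for 78 ribosomal protein genes (rows, ordered by the mean rapamycin difference) in 12 libraries (columns; the black line parts replicate 1 from replicate 2), on the log2(FPKM + 1) scale with red for higher and blue for lower than DMSO. RPL28 and RPL13 are darkest in rapamycin, GSK343, VPA and SAHA of replicate 1, RPL39L is blue in BRD4770 and GSK-J4, and the rapamycin column of replicate 2 is mostly pale red, with RPL3 darker and RPL10L and RPS27L blue; under quantile normalization 40 members are higher and 7 lower with rapamycin in both replicates.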

How the data were processed

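Expression was measured by RNA-seq in 14 U2OS libraries. The authors deposited FPKM values per gene in 2 tables. Per the submitters' processing notes, reads were handled with FastQC, cutadapt and TopHat2 on hg19; versions, gene annotation and the FPKM program were not given in the sources used here. FPKM holds no counts, so depth is unknown. Groups came from sample titles. Differences were taken within a table as log2(FPKM + 1), which understates low genes. The 8 libraries of the replicated groups entered a single limma 3.58.1 fit (R 4.3.3) over 12603 genes whose mean reached 1 FPKM. It had the replicate number as a block and eBayes with trend (degrees of freedom: 3 residual, 5.42 prior). P-values were Benjamini-Hochberg adjusted over all tested genes, threshold 0.05. Libraries with the same number deviated together (correlations of 0.710 to 0.784 over 6 pairs), and the number also names the table. The script was tested on simulated data. Compounds with 1 library were compared by ratio. The members and lists were chosen with earlier results of these data known. Genes were named by rule: the 5 highest and 5 lowest members on the same side of DMSO in both replicates, fixed genes and paralogs (given in full for rapamycin only, and the highest 5 left out for 2-PCPA, where no member was higher), the 3 highest and 3 lowest of each single library, of which a part is printed, and the 5 with the widest span (both among members of at least 10 FPKM in DMSO replicate 1). Members of the comparison lists are given as counts. A few genes picked by these rules are not reported here.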

Additional observations from a re-analysis of the deposited data

How the results depend on the processing

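No member passed the limma threshold for rapamycin, GSK343 or 2-PCPA under any alternative run. The median of members relative to all genes was 0.33 for rapamycin, 0.16 for GSK343 and -0.19 for 2-PCPA. Leaving out the replicate block cannot change these medians, as each replicated group had 1 library per replicate, so that run is no check of them. The block changed no call. Leaving out 1 library at a time gave 0.30 to 0.37 for rapamycin, 0.034 to 0.29 for GSK343 (the lowest without GSK343 replicate 1) and -0.33 to -0.036 for 2-PCPA, the last value without 2-PCPA replicate 1; a group left with 1 library was assumed to vary like the others. For rapamycin the median was 0.35 at a mean of at least 5 FPKM, 0.28 with no filter, 0.31 with a pseudocount of 5 and 0.094 under quantile normalization. For 2-PCPA quantile normalization gave 0.0068, on the other side of 0. For single libraries quantile normalization gave 0.19 for BRD4770, 0.078 for SAHA and 0.12 for VPA. With the median of the other 8 compounds as the reference, added after the data were seen, the medians were -0.50 for 2-PCPA replicate 1, -0.33 for BIX-01294, 0.14 for BRD4770, -0.084 for GSK-J4, 0.049 for GSK343, 0.15 for rapamycin, 0.098 for SAHA, -0.36 for UNC1215 and 0.038 for VPA. Members at least 1.5-fold higher with SAHA numbered 5 under quantile normalization and 8 under TPM scaling instead of 19; at a mean of at least 5 FPKM those with BIX-01294 and UNC1215 numbered 0 and 0. Members at least 1.5-fold lower with BIX-01294 numbered 2 under quantile normalization and 2 under TPM scaling, and with GSK-J4 1 with a pseudocount of 5. Without small RNA and clone rows the shares of summed FPKM in replicate 2 were 20.3% (DMSO), 20.0% (2-PCPA), 20.8% (GSK343) and 23.2% (rapamycin). Some single genes changed sign. Under quantile normalization this held with rapamycin for RPL11 (-0.13), RPL39 (-0.046), RPL7 (-0.070), RPLP0 (-0.020), RPLP1 (-0.056), RPS14 (-0.090), RPS18 (-0.018), RPS27 (-0.14) and RPS27A (-0.032), and with GSK343 for RPS14 (-0.14) and RPS27A (-0.11). Under TPM scaling it held for RPL36AL (-0.022, rapamycin), RPL10L (0.011, 2-PCPA), RPS14 (-0.044, GSK343) and RPS27A (-0.091, GSK343), and under median centring for RPS27A (-0.034, GSK343). Leaving out 1 library at a time gave, with rapamycin, -0.0024 to 0.24 for RPL11, -0.11 to 0.19 for RPL36AL, -0.51 to 0.013 for RPL7L1, -0.044 to 0.30 for RPS14 and -0.035 to 0.30 for RPS27, the lowest without DMSO replicate 2 and the highest without DMSO replicate 1, and -0.012 (without rapamycin replicate 2) to 0.31 for RPS18. With GSK343 it gave -0.23 to 0.12 for RPL21, -0.32 to 0.089 for RPS13, -0.11 to 0.23 for RPS14 and -0.12 to 0.14 for RPS27A at the same DMSO libraries, and -0.23 to 0.053 for RPL10L and -0.43 to 0.062 for RPS27L without GSK343 replicate 1 and replicate 2. None of these genes was called, and the cause was not tested. The depth is unknown, and 2 replicates limit every test.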
